A study of Mus musculus with 12 samples.

Results

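The collagen gene family was followed in heart muscle of mdx mice, which lack dystrophin and model Duchenne muscular dystrophy, and of control mice that the series title calls wild type. Total RNA was hybridised to 12 single-channel Affymetrix arrays, 3 for each of 4 groups: control hearts at 8 weeks, mdx hearts at 8 weeks, control hearts at 10.5 months and mdx hearts at 10.5 months. The labels name no strain, sex, treatment or pooling, and nothing says that the 3 arrays of a group came from separate mice, so p-values measure the spread between arrays. Members were all probe sets annotated to 1 gene whose symbol has the form Col, digits, a, digits. There were 58 of 22690 probe sets, for 36 genes.

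Collagens are proteins of 3 chains wound into a triple helix and are the main structural proteins of the extracellular matrix. In the heart, fibroblasts deposit fibrillar types I and III between the myocytes, and endothelial and muscle cells rest on a basement membrane built from type IV. FACIT collagens sit on the surface of fibrils, type VI forms beaded filaments next to the basement membrane, and the short-chain type VIII forms networks around vessels. Excess collagen in the interstitium is what is seen as fibrosis in the dystrophic heart.

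Few collagen transcripts passed the test between mdx and control hearts, and values lay on both sides of 0. At 8 weeks the FACIT gene Col16a1 and 1 of the probe sets of the fibrillar gene Col5a2 were called higher in mdx hearts. Both calls lay near the threshold and held in 4 and 6 of 23 alternative fits. At 10.5 months no collagen probe set passed the test. All 3 mdx arrays lay above all 3 controls in 7 of the 24 tested genes (29.2%, against 7.93% of all genes) and below them in 1 (4.2%, against 10.8%). Of the 7, Col12a1, Col16a1, Col20a1 and Col25a1 were dim in controls and entered the test through their higher mdx arrays, so the share is a description. In mdx hearts 1 probe set each of Col1a1 and Col18a1 was lower at the older age, of 35 tested, where 5.97% of all tested probe sets were lower. The main basement membrane and fibril genes, Col4a1, Col4a2, Col1a1, Col1a2 and Col3a1, did not pass the test between mdx and control at either age in their brightest probe set.

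Signals were scaled so that the trimmed mean of each array was 500, and differences are on the scale of log2(signal + 32), which understates the change of dim genes. A probe set was tested where its mean signal over the 12 arrays was at least 100, and called where the Benjamini-Hochberg adjusted p over all 14932 tested probe sets was below 0.05. Each gene is represented by its brightest tested probe set unless another is named, errors of differences are standard errors, and levels are means ± SD (n = 3 arrays). Of the 58 collagen probe sets, 35 were tested, for 24 genes. The untested genes were Col2a1, Col11a1 and Col11a2 (fibrillar), Col4a4 (basement membrane), Col10a1 (network), Col9a2, Col9a3, Col19a1 and Col22a1 (FACIT), Col13a1 and Col17a1 (transmembrane) and Col26a1. Their brightest probe sets had mean signals of 6.9 to 98.0. Just below the limit lay Col11a1 at 90.2 and Col11a2 at 98.0, and just above it Col12a1 at 127, Col16a1 at 133 and Col25a1 at 140. A dim gene can pass this limit through the group in which it is high, so counts over tested members describe those genes only.

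Dmd, the dystrophin gene, was lower in mdx hearts at both ages in both tested probe sets, with the brighter at 607, 780 and 623 for 8-week controls against 264, 279 and 159 for mdx. Its log2 difference was -1.42 ± 0.20 at 8 weeks and -1.63 ± 0.20 at 10.5 months (adjusted p = 0.00596 and 0.0120). Correlations of log2 signal between arrays of a group lay between 0.948 and 0.982. On 4 arrays (control replicate 2 and mdx replicates 1 and 2 at 8 weeks, and mdx replicate 3 at 10.5 months) the brightest probe sets reached further, with a 99th percentile of deposited signal of 40770 to 53154 against 27563 to 32810 elsewhere. The 5 ventricular myocyte markers were bright on all arrays, with a summed signal of 97770 to 313521, while the fast skeletal muscle and the extraocular and developing muscle markers had no tested member. A keyword in the labels that names extraocular muscle thus has no counterpart in these markers, although no probe set was matched to Myh13. Atrial markers were uneven: the atrial myosin light chain gene Myl7 was at 3554 and 2216 in control replicates 1 and 2 at 10.5 months and at 131 in replicate 3. Of the 4 atrial markers Myl7, Myl4 and Sln had log2 differences between mdx and control of -2.08, -1.65 and -2.85 at that age, and Nppa was at 0.76 (none called). Their sum, mostly Nppa, was 4926 to 22195 in controls and 11587 to 18087 in mdx hearts. In whole tissue, fewer cells of a type and less RNA per cell cannot be told apart.

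The promoters of 3 genes on which the results turn are shown: Col16a1, which was called at 8 weeks, Col8a1, which had the next smallest p at 8 weeks among brightest probe sets, and Col3a1, a main fibril gene of the interstitium. Each is the stretch of 250 bases before the start of the RefSeq transcript on GRCm38.p6, read on the strand of the gene, with matches on either strand to TATAAA (the TATA box), to the letters CCAAT that NF-Y binds, to the AP-1 letters TGANTCA, to CATTCC (the MCAT element of TEAD factors) and to CAGACA (read by SMAD factors) in capitals.
Col16a1, chr4:130047590-130047839, plus strand: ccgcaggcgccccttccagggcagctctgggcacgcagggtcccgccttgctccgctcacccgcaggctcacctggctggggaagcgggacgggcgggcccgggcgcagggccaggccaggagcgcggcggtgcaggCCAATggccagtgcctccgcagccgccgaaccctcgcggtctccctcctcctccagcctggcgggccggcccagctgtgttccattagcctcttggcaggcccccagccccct
Col8a1, chr16:57754738-57754987, minus strand: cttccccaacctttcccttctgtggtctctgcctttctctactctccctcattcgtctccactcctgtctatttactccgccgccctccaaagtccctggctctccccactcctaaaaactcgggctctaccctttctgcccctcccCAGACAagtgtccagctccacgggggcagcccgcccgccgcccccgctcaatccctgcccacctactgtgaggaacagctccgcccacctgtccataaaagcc
Col3a1, chr1:45311288-45311537, plus strand: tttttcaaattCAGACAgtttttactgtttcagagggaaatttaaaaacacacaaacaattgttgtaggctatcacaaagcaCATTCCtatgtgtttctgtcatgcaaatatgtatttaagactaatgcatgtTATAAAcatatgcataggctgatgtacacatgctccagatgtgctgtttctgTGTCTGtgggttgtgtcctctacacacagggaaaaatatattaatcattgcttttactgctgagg

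The Col16a1 stretch, which overlaps an annotated gene Gm12963 and another Col16a1 transcript, held 1 CCAAT box, 113 to 109 bases before the start, and 1 GC box (GGGCGG, not in capitals). The Col8a1 stretch held 1 SMAD match and 4 GC boxes on the opposite strand. Col3a1 held a TATA box 117 to 112 bases before the start, 1 MCAT match and 2 SMAD matches, and no GC box. Over the 30 promoter windows available for 27 of the 36 collagen genes, 40.0% held a CCAAT box, against 33.8% of all 32851 windows. The shares were 16.7% against 12.4% for the TATA box and 53.3% against 32.7% for the GC box. For the SMAD letters they were 26.7% against 17.1%, for MCAT 13.3% against 12.6% and for AP-1 3.3% against 6.7%. No 2 of these motifs overlapped in the stretches shown, and the matches are a description of letters.

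At 8 weeks the FACIT gene Col16a1 was called higher in mdx hearts, with the largest log2 difference of the 35 tested collagen probe sets. Col16a1, a FACIT of fibril surfaces in many tissues, had signals of 150, 33.2 and 62.9 on the control arrays against 225, 165 and 250 on the mdx arrays. All mdx arrays lay above all controls, and among the controls replicate 1 stood above the others. The gene rose from 81.9 ± 60.5 to 213 ± 43.5, by 1.22 ± 0.29 on the log2 scale (2.33-fold, adjusted p = 0.0490). The difference was 1.79 between the arrays of wide signal range (1 control, 2 mdx) and 1.10 between the others (2 controls, 1 mdx). The call was lost when any array but control replicate 1 at 8 weeks was left out (0.89 to 1.62, adjusted p = 0.0579 to 0.149 where lost). Over 23 alternatives its adjusted p ran from 0.0130 to 0.196.

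**Figure D1:**
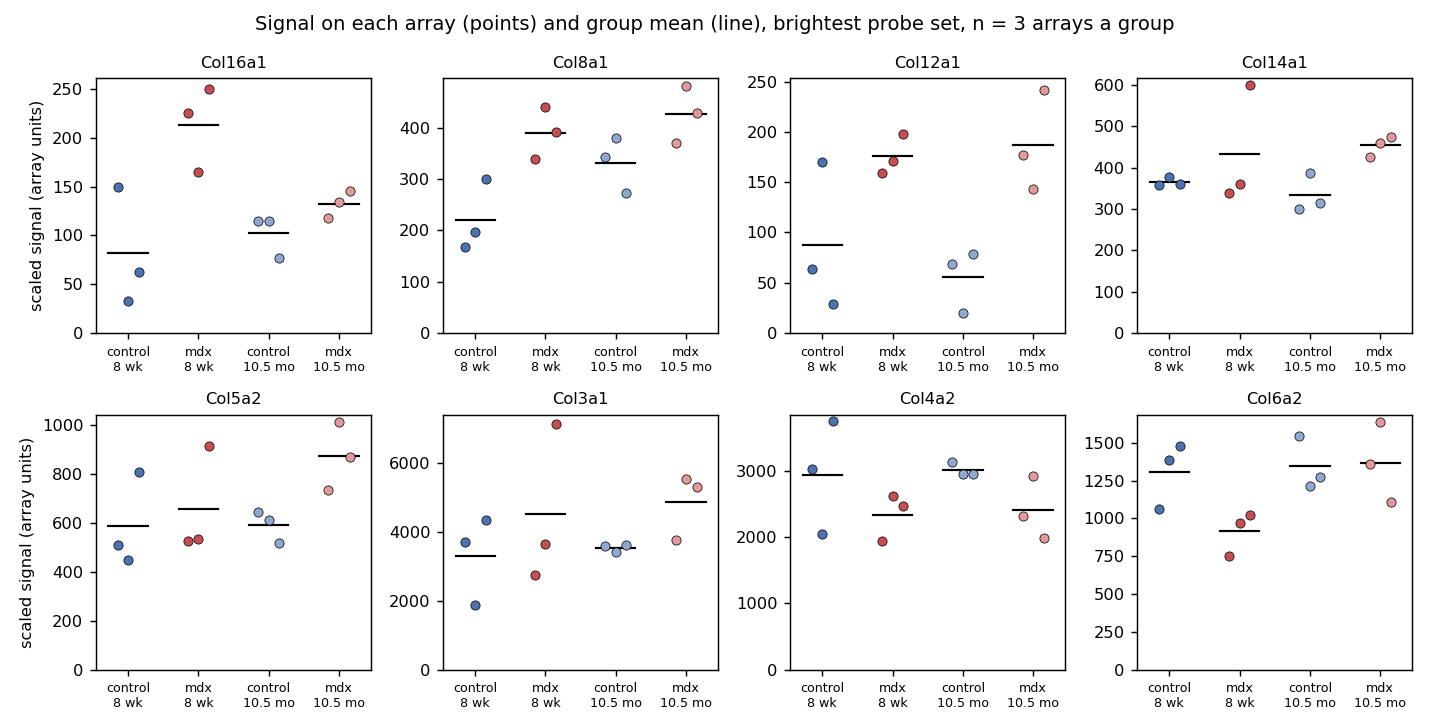
Scaled signal of 8 collagen genes (brightest probe set, linear axes that start at 0, array units) on each of the 12 arrays, as points, with the group mean as a line (n = 3 arrays a group). Col16a1 and Col8a1 have all 8-week mdx arrays above all 8-week controls, and Col3a1, Col5a2, Col12a1, Col14a1 and, narrowly, Col16a1 do so at 10.5 months. All mdx arrays lie below all controls for Col6a2 at 8 weeks and for Col4a2 at 10.5 months.

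Col8a1 encodes a chain of the short-chain network collagen of vessel walls. It gave 167, 196 and 299 for controls against 338, 440 and 391 for mdx at 8 weeks, again without overlap. Its difference of 0.77 ± 0.20 (1.70-fold, adjusted p = 0.0623) missed the threshold, and it missed it in each of 24 alternatives. A second probe set, too dim to test, overlapped at 8 weeks, at 15.1, 57.4 and 41.9 for controls against 10.2, 66.1 and 8.1 for mdx. At 10.5 months Col8a1 was at 342, 379 and 273 for controls against 369, 480 and 428 for mdx. The groups overlapped there, and the difference was 0.34 ± 0.20 (adjusted p = 0.740). The age difference within controls, 0.55 ± 0.20, was not called (adjusted p = 0.298).

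Among the other FACIT genes at 8 weeks, Col12a1, whose product binds type I fibrils under tension, gave 63.4, 170 and 28.4 for controls against 159, 171 and 198 for mdx. Control replicate 2 reached the level of the mdx arrays, and the difference of 0.98 ± 0.37 was not called (adjusted p = 0.191). Without that array it was 1.45 and passed (adjusted p = 0.0401). Col20a1 and Col9a1 had differences of 0.90 ± 0.53 and 0.70 ± 0.36 (adjusted p = 0.404 and 0.331), and Col9a1 had no overlap between groups. Col14a1, which is abundant in fibroblasts of the heart, was at 0.18 ± 0.19 (adjusted p = 0.655). Each of the 5 tested FACIT genes was positive, the median being 0.90, against -0.01 over all 8852 genes tested. The median was the value of Col20a1, whose arrays overlapped between groups. Other Col20a1 probe sets, too dim to test, were at 89.8 in controls and 74.3 in mdx hearts, and at 17.7 and 24.3. The FACIT median rests on dim genes. Col12a1, Col16a1 and Col20a1 had means of 87.4, 81.9 and 93.6 in 8-week controls, below the limit of 100, and of 176, 213 and 206 in mdx hearts. With no filter on low signal the FACIT median was 0.42, and with a limit of 200, which leaves Col14a1 alone, it was 0.18.

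None of the 6 tested fibrillar genes was called in its brightest probe set at 8 weeks. Col1a1 and Col1a2 encode the chains of type I collagen, the main fibril of scar. Col1a1 gave 979, 749 and 1380 for controls against 1231, 1096 and 1378 for mdx at 8 weeks, a difference of 0.28 ± 0.23 (adjusted p = 0.566, 95% interval -0.22 to 0.78). Col1a2 was at 0.15 ± 0.18 (adjusted p = 0.715). Col3a1, of the thinner fibrils that mix with type I, gave 3694, 1871 and 4339 for controls against 2743, 3656 and 7114 for mdx, a difference of 0.41 ± 0.34 (adjusted p = 0.563) that was 0.03 without mdx replicate 3. Of the 6 genes 5 were positive, and their median was 0.15.

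A dimmer probe set of Col5a2 did pass. Type V collagen, to which Col5a2 contributes a chain, sets the diameter of type I fibrils. This probe set gave 102, 140 and 145 for controls against 235, 228 and 265 for mdx, so that no arrays overlapped. It rose by 0.78 ± 0.18 (1.72-fold, adjusted p = 0.0474). The brighter probe set of the same gene gave 509, 451 and 808 for controls against 528, 536 and 915 for mdx, which is 0.15 ± 0.24 (adjusted p = 0.786). The call was lost in 17 of 23 alternatives (adjusted p = 0.0446 to 0.154 over all 23). These included leaving out any single array but control or mdx replicate 3 at 10.5 months.

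Col1a1 showed a similar split between its probe sets. The dimmer one gave 203, 180 and 312 for controls against 382, 403 and 682 for mdx at 8 weeks, with no overlap. Its difference of 0.97 ± 0.24 lay just outside the threshold (adjusted p = 0.0505). Of the 10 collagen genes with more than 1 tested probe set, 9 had the same sign in all of them at 8 weeks and 7 at 10.5 months, but the sizes differed: Col1a2 was at 0.15 and 0.56, and Col5a1 at 0.14, 0.20 and 0.17. Both Col3a1 probe sets were close together at 8 weeks, at 0.41 and 0.28.

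**Figure D2:**
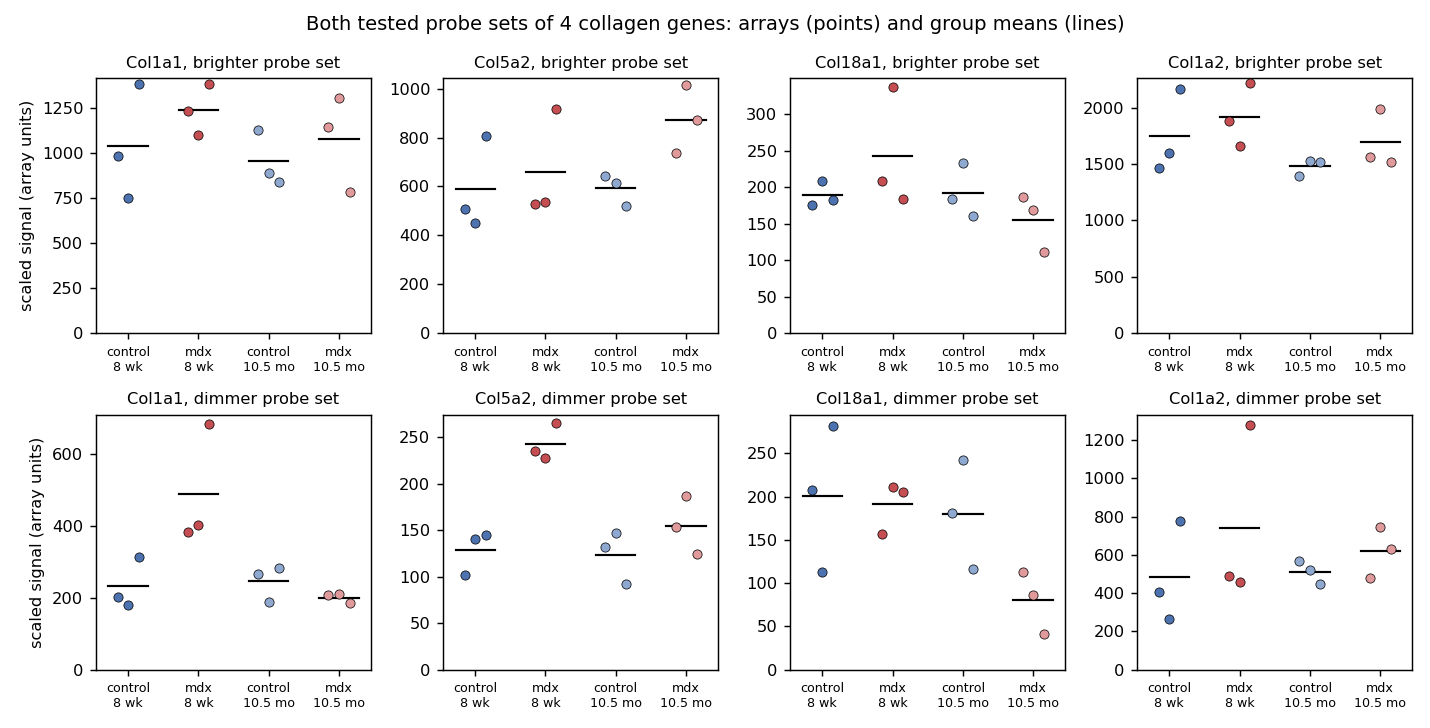
Scaled signal (linear axes that start at 0, array units) of the brighter (top) and dimmer (bottom) of the 2 tested probe sets of Col1a1, Col5a2, Col18a1 and Col1a2 on each array, as points, with group means as lines (n = 3 arrays a group). The dimmer Col1a1 and Col5a2 probe sets stand high in the 8-week mdx group, at 382 to 682 and 228 to 265, while the brighter ones overlap with controls at that age.

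The basement membrane genes showed no shared direction at 8 weeks. Col4a1 and Col4a2 encode the chains of the type IV network found under nearly all endothelium and around myocytes, and their RefSeq starts lie on opposite strands of chromosome 8 and only 21 bases apart. Col4a1 gave 4006, 6121 and 6113 for controls against 4811, 5815 and 4189 for mdx (-0.12 ± 0.20, adjusted p = 0.798), while its second probe set was at 0.14 ± 0.20 (adjusted p = 0.767). Col4a2 gave 3026, 2046 and 3749 for controls against 1936, 2620 and 2463 for mdx (-0.29 ± 0.22, adjusted p = 0.513). Groups overlapped for both. Col4a3, a chain best known from kidney and lung basement membranes, had the smallest p of the class (0.41 ± 0.21, adjusted p = 0.337). The median of the 5 tested genes was -0.08.

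Type VI collagen, whose loss causes a muscular dystrophy of its own, was the class with lower values. Col6a1 gave 1289, 1298 and 1635 for controls against 714, 1218 and 1270 for mdx at 8 weeks, and Col6a2 gave 1063, 1384 and 1480 for controls against 749, 969 and 1026 for mdx. In both genes every mdx array lay below every control, but neither difference was called (-0.42 ± 0.21 and -0.50 ± 0.19, adjusted p = 0.309 and 0.192). A second probe set of Col6a2 was at -0.10, and Col6a3 was at -0.25 ± 0.22 (adjusted p = 0.592). Of the remaining genes, Col25a1, a membrane-bound collagen of nerve and muscle, was at 0.98 ± 0.33 (adjusted p = 0.147) and Col7a1, of anchoring fibrils, at 0.54 ± 0.24 (adjusted p = 0.251). The multiplexins Col15a1 and Col18a1, which carry endostatin-type domains in basement membrane zones, were at -0.04 ± 0.26 and 0.28 ± 0.22 (adjusted p = 0.962 and 0.550).

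In all, 2 of the 35 tested collagen probe sets were called higher and 0 lower at 8 weeks, where 1.39% of all tested probe sets were higher and 0.911% lower. By the unadjusted p, 6 of 24 genes were below 0.05, where 17.7% of all genes were. The 6 include Col12a1, Col16a1 and Col25a1, which entered the test through their higher mdx arrays. All mdx arrays lay above all controls in 3 genes (12.5%, against 9.53% of all genes) and below them in 2 (8.3%, against 10.5%), so these shares were near those of genes at large. The median over the 24 genes was 0.17. Atrial markers moved with the same comparison: their summed signal was 4193 to 6291 in controls and 11848 to 12577 in mdx hearts at 8 weeks, and none of the 4 was at 0. Nppa made up most of that sum, and Myl7, Myl4 and Sln were at 0.93, 0.55 and 1.22, none of the 4 called. With the atrial signal of Myl7, Myl4 and Sln as a covariate Col16a1 was at 1.13 (adjusted p = 0.0930) and no collagen was called. Nerve and Schwann cell markers (1 of 2 measured was tested, Sox10) summed to 217 to 342 in controls and 428 to 522 in mdx hearts, and their part in the collagen values was not tested. Sox10 was called higher (0.95 ± 0.21, adjusted p = 0.0365) and made up most of that sum. The other marker, S100b, was too dim to test and overlapped, at 52.8, 44.7 and 51.6 for controls against 34.6, 44.7 and 68.4 for mdx. Among smooth muscle markers Acta2 was called lower in mdx hearts (-0.80 ± 0.14, adjusted p = 0.0184), at 6631, 7550 and 6144 for controls against 3580, 4356 and 3693 for mdx. The sum of that list overlapped, at 14036 to 17306 and 12219 to 18689, as did that of fibroblast markers, at 21148 to 30383 and 23393 to 38714.

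**Figure D3:**
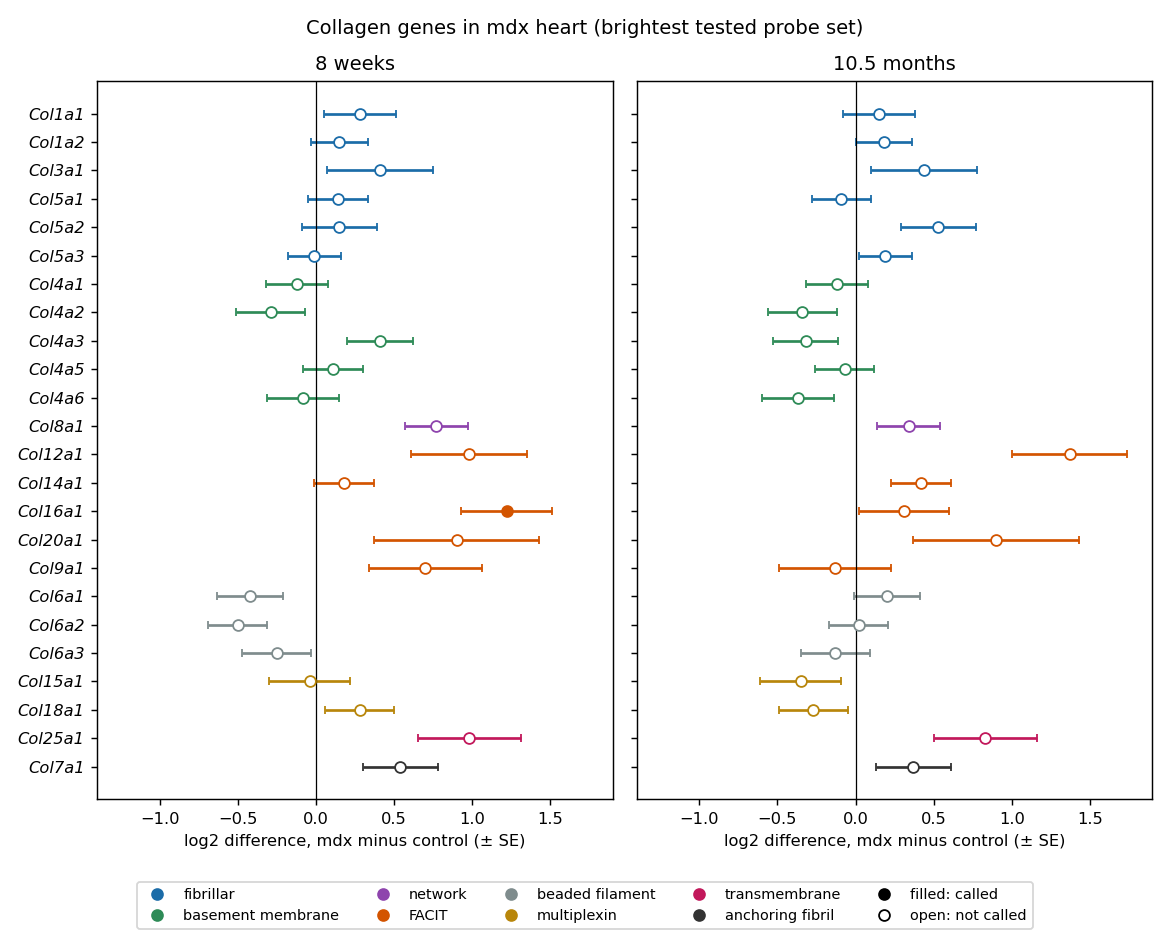
Difference between mdx and control hearts at 8 weeks (left) and 10.5 months (right) in log2 units, with standard errors, for the 24 tested collagen genes by class. Filled points mark genes called at an adjusted p below 0.05, and only Col16a1 at 8 weeks (1.22) is filled.

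At 10.5 months the FACIT genes Col12a1 and Col14a1 and the fibrillar genes Col3a1 and Col5a2 were again on the higher side in mdx hearts, without passing the test. Col12a1 gave 68.6, 20.4 and 78.3 for controls against 177, 143 and 242 for mdx. The lowest mdx array was well above the highest control, and the difference of 1.37 ± 0.37 was the largest of the family at this age (2.59-fold, adjusted p = 0.416, unadjusted p = 0.00273). Over both ages together Col12a1 was 1.18 ± 0.26 higher in mdx hearts (adjusted p = 0.10), the smallest p of the family in that comparison. Without control replicates 1 and 2, the arrays with high Myl7, the 10.5-month value of Col12a1 was 0.97.

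Col14a1 was more even between arrays, at 300, 388 and 315 for controls against 427, 461 and 475 for mdx. Its difference was 0.42 ± 0.19 (adjusted p = 0.673), and the second probe set gave the same value of 0.42. Col16a1, the gene called at 8 weeks, was at 115, 115 and 77.2 for controls against 118, 134 and 146 for mdx, which is 0.31 ± 0.29 (adjusted p = 0.854). The mdx effect on Col16a1 was not shown to differ between the ages (-0.92 ± 0.41, adjusted p = 0.402). Col20a1 was at 0.90 ± 0.53 (adjusted p = 0.739) and Col9a1 at -0.13 ± 0.36 (adjusted p = 0.956). The untested Col20a1 probe sets went the other way, at 69.2 in controls against 38.9 in mdx hearts, and at 25.7 against 13.2. The median of the 5 FACIT genes was 0.42, against -0.02 over all genes tested, and 0.27 with no filter on low signal.

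Col3a1 gave 3580, 3402 and 3606 for controls against 3745, 5522 and 5286 for mdx at 10.5 months. The controls lay within a narrow band and every mdx array was above it, but the difference of 0.44 ± 0.34 was not called (adjusted p = 0.812). Col3a1 was called in 0 of 24 alternatives at this age, which include a fit on the 10.5-month groups only. Its second probe set was at 0.48 ± 0.26, also without overlap (adjusted p = 0.705). Col5a2 gave 644, 613 and 519 for controls against 736, 1014 and 871 for mdx (0.53 ± 0.24, adjusted p = 0.668). Type I genes overlapped between groups: Col1a1 gave 1128, 888 and 839 for controls against 1142, 1301 and 783 for mdx (0.15 ± 0.23, adjusted p = 0.910), and Col1a2 was at 0.18 ± 0.18 (adjusted p = 0.859). The dimmer Col1a1 probe set had the opposite sign (-0.24 ± 0.24, adjusted p = 0.854). Col5a1, a partner chain of Col5a2, was at -0.09 ± 0.19, and its second probe set at 0.19 ± 0.21 (adjusted p = 0.937 and 0.880). The fibrillar median was 0.18 over 6 genes, 5 of them positive.

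All 5 tested type IV genes had negative values at 10.5 months, with a median of -0.32, and none was called. Col4a2 gave 3133, 2959 and 2954 for controls against 2322, 2928 and 1983 for mdx, all mdx arrays below all controls (-0.34 ± 0.22, adjusted p = 0.764). Its partner Col4a1 gave 6116, 5974 and 5951 for controls against 5731, 6439 and 4540 for mdx (-0.12 ± 0.20, adjusted p = 0.915). The smallest p of the class was that of Col4a6, a chain of smooth muscle basement membranes (-0.37 ± 0.23, adjusted p = 0.758). Mdx replicate 3, an array of wide signal range, was lowest for Col4a1, Col4a2 and Col4a6, and without it the class median was -0.10. That array also had the highest 3'/5' signal ratio of the actin control probe sets, 1.44 against 1.05 to 1.29 on the others, and the part of RNA quality was not tested. Col18a1 was at -0.27 ± 0.22 and Col15a1 at -0.35 ± 0.26 (adjusted p = 0.828 and 0.807), and the multiplexin median of -0.31 was -0.08 without the same array. Endothelial markers, whose cells lie on these membranes, had a summed signal of 5180 to 5834 in controls and 4581 to 5547 in mdx hearts, and their part was not tested.

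At 10.5 months the type VI genes lay nearer to controls, with Col6a1 at 0.20 ± 0.21 and Col6a2 at 0.02 ± 0.19 (adjusted p = 0.870 and 0.988), and Col6a3 at -0.13 ± 0.22 (adjusted p = 0.918). The second Col6a2 probe set was at -0.20 ± 0.21 (adjusted p = 0.870). The mdx effects at the 2 ages differed by 0.62 ± 0.29 for Col6a1 and 0.52 ± 0.27 for Col6a2, and neither difference was called (adjusted p = 0.421 and 0.475). Col25a1 gave 44.2, 163 and 122 for controls against 181, 194 and 234 for mdx (0.83 ± 0.33, adjusted p = 0.666), and Col7a1 was at 0.37 ± 0.24 (adjusted p = 0.758).

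In all, 0 of the 35 collagen probe sets were called at 10.5 months by limma, with 4 of 24 genes below an unadjusted p of 0.05, where 7.34% of all genes were. Few probe sets of any kind were called at this age, 0.0134% higher and 0.0335% lower. All mdx arrays lay above all controls in 7 of 24 genes (29.2%), namely Col3a1, Col5a2, Col12a1, Col14a1, Col16a1, Col20a1 and Col25a1, where 7.93% of all genes did so. They lay below in 1 (4.2%, against 10.8%). Col12a1, Col16a1, Col20a1 and Col25a1 entered the test through their higher mdx arrays, so the counts by array overlap and unadjusted p describe the tested genes only. The median over the 24 genes was 0.17, with 14 positive. Fibroblast markers had a summed signal of 24242 to 26479 in controls and 27893 to 33549 in mdx hearts. Of the 8, 7 were positive and 0 were called, and the sizes differed. Mfap5, Lum and Dpt were at 0.98, 0.78 and 0.62, but Dcn, Gsn, Tcf21, Fbln1 and Pdgfra at 0.24, 0.12, 0.09, 0.04 and -0.02. The sum of cartilage markers (377 to 445 against 498 to 581, 2 of 5 tested) also had no overlap. Of the 2 tested, Comp was at 1.05 but Acan at -0.07, and neither was called. Smooth muscle and pericyte markers were mixed: their sum had no overlap (12414 to 13813 against 14622 to 15666), with Acta2 at 0.64 but Myh11 at -0.67 and Pdgfrb at -0.27. The part of none of these lists in the collagen values was tested.

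**Figure D4:**
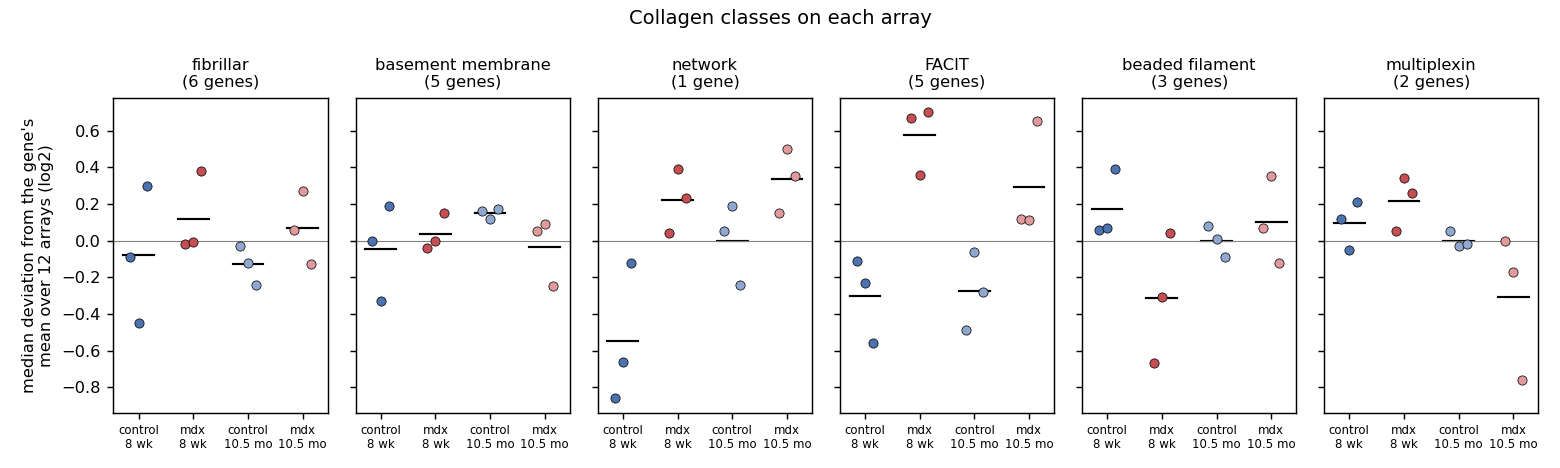
Median over the tested genes of each collagen class of the log2 deviation from the gene's own mean over 12 arrays, for each array (points), with the group mean as a line (n = 3 arrays a group). FACIT values are 0.36 to 0.70 in 8-week mdx hearts and -0.56 to -0.11 in 8-week controls, and at 10.5 months 0.11 to 0.65 and -0.49 to -0.06. Fibrillar values overlap at each age, beaded filament values are 0.06 to 0.39 in 8-week controls and -0.67 to 0.04 in 8-week mdx hearts, and basement membrane values at 10.5 months are 0.12 to 0.17 and -0.25 to 0.09.

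Col12a1, Col16a1 and Col20a1 reached the signal limit only through their higher mdx arrays. The median of the 5 tested FACIT genes per array is therefore given as a description. It averaged 0.58 ± 0.19 in mdx and -0.30 ± 0.23 in control hearts at 8 weeks, and 0.29 ± 0.31 and -0.28 ± 0.22 at 10.5 months. The fibrillar median was 0.12 ± 0.23 and -0.08 ± 0.38 at 8 weeks and 0.07 ± 0.20 and -0.13 ± 0.11 at 10.5 months, with overlap at both. The beaded filament median had no overlap at 8 weeks (-0.31 ± 0.36 in mdx and 0.17 ± 0.19 in control hearts), nor the basement membrane median at 10.5 months (-0.04 ± 0.19 and 0.15 ± 0.03). Of the 35 probe sets, 0 were called by limma for a difference between the ages in the mdx effect, where 0.154% of all probe sets were, and 0 for the mean mdx effect over both ages, where 0.201% were. By unadjusted p, 2 of the 24 genes were below 0.05 for the difference, where 1062 of all 8852 genes were, and 7 for the mean effect, where 13.3% were. Of the 7, 4 were FACIT genes and 1 was Col25a1, which also entered the test through its higher mdx arrays. The count of 7 is therefore a description of the tested genes. With 10 higher and 14 lower, the 24 genes had a median of -0.09 for the difference between ages, and of 0.12 for the mean effect.

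For age within control hearts 0 of the 35 collagen probe sets were called by limma, where 0.147% of all probe sets were called, and 1 of 24 genes had an unadjusted p below 0.05, where 11.8% of all genes did. That gene was Col8a1, described above. The median was 0.04, and the fibrillar and basement membrane medians were -0.02 and 0.18. The smallest p elsewhere belonged to Col5a3 among fibrillar genes (-0.25 ± 0.17, adjusted p = 0.601), followed by Col16a1 among FACIT genes (0.36 ± 0.29, adjusted p = 0.670), Col25a1 (0.37 ± 0.33, adjusted p = 0.692) and Col6a1 (-0.23 ± 0.21, adjusted p = 0.695). Col4a1 had the smallest p of the basement membrane class (0.18 ± 0.20, adjusted p = 0.766), and Col15a1 that of the multiplexins (-0.20 ± 0.26, adjusted p = 0.80). Col7a1 was at -0.17 ± 0.24 (adjusted p = 0.821). These values share their control arrays with the mdx comparisons, as the age values in mdx hearts share the mdx arrays.

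Within mdx hearts, 2 collagen probe sets were lower at 10.5 months than at 8 weeks and 0 were higher, where 5.97% of all probe sets were lower and 5.45% higher. By unadjusted p, 4 of 24 genes were below 0.05, where 30.1% of all genes were. The dimmer probe set of Col1a1 gave 382, 403 and 682 at 8 weeks and 208, 209 and 184 at 10.5 months. It fell from 489 ± 167 to 200 ± 14.4, with no overlap (-1.12 ± 0.24, 2.17-fold, adjusted p = 0.0124). In controls the same probe set was at 232 ± 70.3 and 246 ± 50.4. The mdx effect on it differed between ages by -1.21 ± 0.33, which was not called (adjusted p = 0.176). This fall was called in each of 24 alternatives, from -1.57 to -0.87 (adjusted p = 0.00400 to 0.0444), whereas the brighter Col1a1 probe set was at -0.22 ± 0.23 (adjusted p = 0.564).

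The dimmer probe set of Col18a1, the gene whose product releases endostatin, gave 157, 211 and 205 in mdx hearts at 8 weeks and 113, 86.3 and 41.6 at 10.5 months. It fell by 1.04 ± 0.31 on the log2 scale (adjusted p = 0.0474), and the brighter one was at -0.54 ± 0.22 (adjusted p = 0.122). The call held in 7 of 23 alternatives (adjusted p = 0.0119 to 0.167). It was lost in 8 of the 12 fits without 1 array, and without mdx replicate 3 at 10.5 months the value was -0.76. It remained without control replicate 2 or 3 at 8 weeks, control replicate 3 at 10.5 months or mdx replicate 1 at 10.5 months. The smallest p of other classes were those of Col6a2 (0.56 ± 0.19, adjusted p = 0.0726), Col4a3 (-0.54 ± 0.21, adjusted p = 0.109), Col9a1 (-0.84 ± 0.36, adjusted p = 0.134) and, among fibrillar genes in brightest probe sets, Col5a2 (0.42 ± 0.24, adjusted p = 0.256). The dimmer Col5a2 probe set had the opposite sign (-0.57 ± 0.18, adjusted p = 0.0610). Col7a1, Col25a1 and Col8a1, each the one tested gene of its class, were at -0.34 ± 0.24, 0.23 ± 0.33 and 0.12 ± 0.20 (adjusted p = 0.356, 0.685 and 0.734). Second probe sets of Col4a1 and Col6a2 had the opposite sign to the brightest, at -0.50 against 0.17 and at -0.05 against 0.56. The median over the 24 genes was -0.07. Some cell type markers differed with age in mdx hearts too. Of 8 fibroblast markers 6 were positive and 2 negative, and 3 were called higher, where 5.45% of all probe sets were. Their sums overlapped, at 23393 to 38714 at 8 weeks and 27893 to 33549 at 10.5 months. Sox10 was called lower, where 5.97% of all probe sets were, and the macrophage, smooth muscle and myocyte lists had 0 called. The 6 endothelial markers had a median of -0.42, with 0 called by limma. Of these 6, 4 were at an unadjusted p below 0.05, where 30.1% of all genes were, and the sums were 5541 to 7378 and 4581 to 5547. The part of these cells was not tested.

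Genes that make and handle collagen were compared alongside. Of 18 measured genes of collagen synthesis and secretion, which hydroxylate, fold and export the chains, 0 were called at either age, and 13 and 12 had negative values at 8 weeks and 10.5 months (median -0.12 at both). P3h4, which assists lysine hydroxylation, was nearest at 8 weeks (-0.54 ± 0.17, adjusted p = 0.122), and the cyclophilin gene Ppib at 10.5 months (0.47 ± 0.18, adjusted p = 0.666). By unadjusted p, 3 of the 18 were below 0.05 at 8 weeks and 1 at 10.5 months, where 17.7% and 7.34% of all genes were.

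Of 11 tested genes that trim, assemble or cross-link collagen, 0 were called at either age, but all 11 had positive values at 10.5 months (median 0.24). At 8 weeks 8 were positive, with a median of 0.04. Lox, the lysyl oxidase that starts cross-links, gave 243, 215 and 210 for controls against 394, 447 and 406 for mdx at 10.5 months. No arrays overlapped, and the difference was 0.81 ± 0.21 (adjusted p = 0.367). Lum, a small proteoglycan of fibrils, gave 1956, 2066 and 1645 for controls against 2528, 3714 and 3687 for mdx (0.78 ± 0.19, adjusted p = 0.367). Lum is also on the fibroblast list, and the part of fibroblast content was not tested here either. At 8 weeks Loxl4, another lysyl oxidase, had the smallest p (0.33 ± 0.18, adjusted p = 0.355), Lox was at 0.33 ± 0.21 and Lum at 0.02 ± 0.19 (adjusted p = 0.433 and 0.965).

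Among 7 collagen receptor genes 0 were called, with 4 positive at 8 weeks (median 0.32) and 3 at 10.5 months (median -0.07). Lair1, an inhibitory receptor of immune cells, was nearest at 8 weeks (0.66 ± 0.20, adjusted p = 0.114). At 10.5 months Adgrg1, an adhesion receptor that binds type III collagen, was nearest (-0.40 ± 0.18, adjusted p = 0.674).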

How the data were processed

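Values were taken from the 12 columns of the series matrix table. The deposited intensity values, 1 per probe set and array on a linear scale, had been scaled by the authors to a common target, since their means after trimming 2% at both ends were 1500.6 to 1500.9. The probe set software and detection calls are not given in the sources used here. In the platform annotation 20393 probe sets had a single gene, 691 had more and 1606 had none. Symbols of 20364 were found by gene ID in the RefSeq gene table (GRCm38.p6). Promoter windows are RefSeq's.

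Arrays were rescaled to a trimmed mean of 500, and limma 3.58.1 in R 4.3.3 fitted 4 group means to log2(signal + 32) on all 12 arrays (8 residual and 5.2 prior degrees of freedom). The 64 control probe sets were left out. The fit was tested on simulated data. Groups and replicate numbers come from the sample titles. Genes were named by a rule: the main chains of each class, every called member, and the smallest p per class and list. Col20a1 and Lox were named after their values were seen. The number of arrays limits the precision. The members and lists were chosen with earlier results of these data known.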

Additional observations from a re-analysis of the deposited data

How the results depend on the processing

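The number of collagen probe sets called stayed within 1.5 times its value in 3 of 24 alternatives at 8 weeks and in 9 of 24 for age in mdx hearts, and class medians stayed within their SD in 168 and 167 of 175. The cause of each shift below was not tested unless fewer genes or arrays explain it. At 8 weeks the number of collagen probe sets called was 2. It was 1 with an offset of 16 (Col5a2), with no filter (Col9a3, a gene not tested otherwise), with a limit of 200 and with the replicate block (both Col1a1, its dimmer probe set), and 0 with the atrial covariate, array weights or only the groups compared, and without the arrays of wide signal range or control replicates 1 and 2 at 10.5 months together (both chosen after seeing the data). Leaving out 1 array gave 0 to 1. Within mdx hearts the number with age was 2. It was 1 after quantile normalization, with a limit of 200, the replicate block, the atrial covariate, only the groups compared and both sets of arrays left out, and 4 with no filter or with a signal range block, and it ran from 1 to 3 without 1 array. For the mean mdx effect it was 0, but 1 with array weights, and 0 to 1 without 1 array. The counts at 10.5 months, for the difference between ages and for age in controls stayed at 0 throughout.

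Class medians moved by more than their SD between arrays in the following cases. At 8 weeks the FACIT median of 0.90 was 0.42 with no filter, 0.18 with a limit of 200 (1 gene left) and 0.64 with array weights, and 0.58 to 0.99 without 1 array. The basement membrane median of -0.08 was 0.12 without the wide arrays, and -0.11 to 0.12 without 1 array. At 10.5 months the basement membrane median of -0.32 was -0.12 with a limit of 200, -0.10 without the wide arrays and -0.34 to -0.10 without 1 array. The network value of 0.34 was -0.22 with no filter, which adds Col10a1, and the multiplexin median of -0.31 was -0.08 without the wide arrays and -0.47 to -0.08 without 1 array. For the difference between ages, the FACIT median of 0.00 was -0.25 with the atrial covariate, -0.57 without the wide arrays, -0.28 without control replicates 1 and 2 and -0.64 to 0.27 without 1 array. The basement membrane value was 0.02 with array weights, the network one -1.08 with no filter and the beaded filament one 0.21 with probe sets averaged per gene. The multiplexin one was -0.18 without the wide arrays and -0.59 to -0.21 without 1 array. For the mean effect the FACIT median was 0.30 with no filter and 0.30 with a limit of 200. For age in mdx hearts the basement membrane median was 0.15 with array weights (-0.22 to 0.16 without 1 array) and the network one -0.61 with no filter. The FACIT one was -0.28 with no filter, -0.65 without the wide arrays and -0.53 to 0.13 without 1 array. Without 1 array the beaded filament median ran from 0.13 to 0.53 and the multiplexin one from -0.68 to -0.30. Same-numbered control and mdx arrays did not deviate together (correlations of -0.13 to 0.13), and the sample titles give a replicate number without naming a pairing. With the replicate block the adjusted p was 0.0630 for Col16a1 and 0.0673 for Col5a2 at 8 weeks, and 0.0683 for Col18a1 with age. No called value of a collagen gene changed sign. Over all probe sets, 207 higher and 136 lower calls at 8 weeks became 23 with only the groups compared and 42 to 454 in fits with other settings that kept both ages. At 10.5 months 2 higher and 5 lower became 0 with the atrial covariate and 110 with array weights.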
